A study of Mus musculus with 5 samples.

Results

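The genes described here are 10 transcription factors and clock proteins of the circadian oscillator. They are the proline and acidic amino acid-rich (PAR) bZIP activators Hlf, Dbp and Tef, the bZIP repressor Nfil3, the period and cryptochrome genes Per1, Per2 and Cry1, the bHLH-PAS activators Arntl and Clock, and the bHLH repressor Bhlhe40. They were picked by symbol from the deposited table, which holds 24417 named genes, and all 10 were found in it. Their difference between the groups was already known when they were picked, so their values are given as a description and carry no test.

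The cells were sorted from the lamina propria of the mouse colon, the layer just under the gut epithelium, and their RNA was sequenced. The Foxp3 Thy1.1+ reporter-null cells gave 3 libraries and the Foxp3-DTR-GFP+ regulatory T (Treg) cells gave 2. By the strain label, all 5 libraries came from mice that carry a Foxp3DTR-GFP allele beside a loxp-Thy1.1-STOP-loxp-GFP allele of Foxp3, the gene of the factor that defines Treg cells. The reporter-null cells are those that express the Thy1.1 allele. The labels give no age, no time of day of collection and no statement that libraries came from separate animals, so the spread between libraries may be technical. The sample description of reporter-null replicate 1 joins the numbers 1 and 4, while those of the other libraries carry a single number.

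In the circadian loop of mammalian cells, ARNTL (also called BMAL1) and CLOCK bind E-box motifs and switch on the Per and Cry genes, whose proteins then inhibit that pair. BHLHE40 binds E-boxes too and represses transcription there, while the nuclear receptors REV-ERB and ROR compete at a second motif, the RORE, in the Arntl gene. DBP, TEF and HLF, whose genes are outputs of the loop, activate D-box motifs, and NFIL3 (also called E4BP4) represses the same motifs. In T cells of the mouse, NFIL3 is also known as a factor that limits Th17 differentiation, and BHLHE40 as a factor that helps effector T cells make cytokines.

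The letters of the E-box, the RORE core or the cyclic AMP response element can be seen in promoters of 6 of the genes, which are shown for these matches. Of the 10 genes 8 had at least 1 promoter in the RefSeq table for GRCm38.p6, with 13 windows of 300 bases that run from 250 bases before to 50 bases after a transcription start. Below they read 5′ to 3′ in the sense of the gene, with a match to a motif on either strand in capitals. The first has the cyclic AMP response element TGACGTCA, the next 3 have the E-box CACGTG, and the last 2 have the RORE core TAGGTCA or its reverse complement TGACCTA.
Hlf (chr11:90390868-90391167, minus strand): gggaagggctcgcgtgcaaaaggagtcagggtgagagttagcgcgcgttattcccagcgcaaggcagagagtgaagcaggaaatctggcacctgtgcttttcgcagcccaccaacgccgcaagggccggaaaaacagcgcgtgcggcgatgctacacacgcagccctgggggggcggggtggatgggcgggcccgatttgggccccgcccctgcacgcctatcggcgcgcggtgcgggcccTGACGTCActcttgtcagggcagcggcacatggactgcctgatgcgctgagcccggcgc
Tef (chr15:81802423-81802722, plus strand): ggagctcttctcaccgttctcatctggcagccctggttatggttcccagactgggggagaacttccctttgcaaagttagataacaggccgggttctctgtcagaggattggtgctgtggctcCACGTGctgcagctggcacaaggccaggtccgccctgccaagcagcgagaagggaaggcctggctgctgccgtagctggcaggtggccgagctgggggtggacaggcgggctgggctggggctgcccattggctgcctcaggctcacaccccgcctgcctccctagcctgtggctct
Per1 (chr11:69098699-69098998, plus strand): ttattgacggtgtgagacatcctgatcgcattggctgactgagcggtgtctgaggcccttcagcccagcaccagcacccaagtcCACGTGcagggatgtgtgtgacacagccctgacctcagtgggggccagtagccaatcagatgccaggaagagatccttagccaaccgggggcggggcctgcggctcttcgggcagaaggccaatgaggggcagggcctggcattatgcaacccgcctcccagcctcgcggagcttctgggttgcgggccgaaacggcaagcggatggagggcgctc
Cry1 (chr10:85185005-85185304, minus strand): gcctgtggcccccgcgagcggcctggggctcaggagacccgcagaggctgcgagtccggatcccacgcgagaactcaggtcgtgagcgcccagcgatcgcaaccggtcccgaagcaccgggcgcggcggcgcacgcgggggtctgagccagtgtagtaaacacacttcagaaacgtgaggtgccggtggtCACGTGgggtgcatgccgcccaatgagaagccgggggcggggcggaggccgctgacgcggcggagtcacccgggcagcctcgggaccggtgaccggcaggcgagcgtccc
Nfil3 (chr13:52980990-52981289, minus strand): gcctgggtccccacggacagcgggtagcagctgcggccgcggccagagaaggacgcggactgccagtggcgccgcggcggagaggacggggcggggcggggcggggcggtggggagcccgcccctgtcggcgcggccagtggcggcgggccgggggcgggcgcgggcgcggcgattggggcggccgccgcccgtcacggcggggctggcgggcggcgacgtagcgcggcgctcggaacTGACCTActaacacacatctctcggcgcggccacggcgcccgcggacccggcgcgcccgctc
Arntl (chr7:113207261-113207560, plus strand): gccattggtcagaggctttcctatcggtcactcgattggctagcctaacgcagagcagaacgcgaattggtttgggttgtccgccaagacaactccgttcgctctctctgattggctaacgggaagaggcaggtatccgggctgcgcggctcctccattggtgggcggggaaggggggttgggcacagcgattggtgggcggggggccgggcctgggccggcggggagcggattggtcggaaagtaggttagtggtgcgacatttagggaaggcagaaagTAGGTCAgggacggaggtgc
The E-box was found in 3 of the 8 genes with a promoter, Tef, Per1 and Cry1, in 4 of the 13 windows, and in 7.15% of all 32851 promoter windows of the table. The RORE core was found in Nfil3 and Arntl, in 2 of the 13 windows, and in 2.61% of all windows. The cyclic AMP response element was found in Hlf alone of the 8, in 1 of the 13 windows, and in 1.79% of all windows. No window of the 8 genes held the D-box, spelled TTATGTAA or TTACGTAA, which 1.06% of all windows held. These matches are letters in a short window and say nothing of binding. No window held matches to more than 1 of the 4 motifs, so none overlapped. Per2 and Bhlhe40 had no window.

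Library totals ran from 17670420 to 22395169 counts. Levels are given in CPM, read counts scaled to a common library size with TMM factors. Reporter-null replicate 2 stood apart by its epithelial RNA. The 8 epithelial markers listed (among them Epcam and Krt8) summed to 1050 CPM there, to 19.1 and 24.3 CPM in reporter-null replicates 1 and 3, and to 224 and 41.8 CPM in Treg replicates 1 and 2. None of the 8 was at 0 in all libraries. The 6 CD4 T cell markers were all detected and summed to 4870 to 5380 CPM in reporter-null and 4110 CPM in both Treg libraries. The Treg list (Foxp3, Il2ra, Ctla4, Ikzf2 and Tnfrsf18) summed to 3650 to 4160 CPM in reporter-null and 6240 to 6850 CPM in Treg libraries. Most of that sum was Ctla4, at 2943 to 3488 CPM in reporter-null and 3474 to 3994 CPM in Treg libraries, which overlapped. The other genes of the list were lower in every reporter-null library than in either Treg library. Foxp3 itself had 75.7 to 81.3 CPM in reporter-null and 764 to 770.0 CPM in Treg libraries. Myeloid markers summed to 15.4 to 73.2 CPM in reporter-null and 11.5 to 32.9 CPM in Treg libraries, and fibroblast markers to 8.77 to 90.5 CPM in reporter-null and 9.94 to 41.5 CPM in Treg libraries. B and plasma cell markers, mostly Jchain, ran from 379 to 882 CPM in reporter-null and from 406 to 1380 CPM in Treg libraries. Of the gamma-delta T cell list, Blk and Sox13 were in the table and summed to 40.8 to 54.4 CPM in reporter-null and 3.80 to 3.88 CPM in Treg libraries, nearly all of it Blk in reporter-null cells. The mast cell list, mostly Kit, summed to 15.3 to 38.3 CPM in reporter-null and 7.66 to 8.79 CPM in Treg libraries. Of the 6 NK and innate lymphoid markers Klrb1b was at 0 in every library and Ncr1, Eomes and Klre1 were at most 1.34 CPM. The list summed to 55.8 to 182 CPM in reporter-null and 477 to 497 CPM in Treg libraries, nearly all of it Il1rl1 and Klrg1, which T cells also express. Klrg1 had 12.5 to 77.0 CPM in reporter-null and 390 to 412 CPM in Treg libraries. Cd8a and Cd8b1 together summed to 3.55 to 7.39 CPM in reporter-null and 11.2 to 11.9 CPM in Treg libraries, and the endothelial list, nearly all Pecam1, to 86.7 to 95.5 CPM in reporter-null and 81.5 to 102 CPM in Treg libraries. The part of other cells in the values below was not tested.

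Hlf stood apart from the other 9 genes in the size of its difference. It was present at 177, 215 and 208 CPM in reporter-null replicates 1, 2 and 3, and at 24.9 and 24.4 CPM in Treg replicates 1 and 2. The lowest reporter-null library was far above the highest Treg library, and the libraries within each group lay close together. The means were 200.2 ± 20.1 CPM in reporter-null cells (SD, n = 3) and 24.7 ± 0.358 CPM in Treg cells (SD, n = 2), a fold of 8.11. The log2 fold change, reporter-null minus Treg as everywhere below, was 3.02 with a standard error (SE) of 0.14, and 98.1% of the 14164 genes tested had a smaller one in size. It stayed between 2.95 and 3.10 when any of the 5 libraries was left out. In such bulk libraries fewer cells that express a gene and less of its RNA per cell cannot be told apart.

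**Figure D1:**
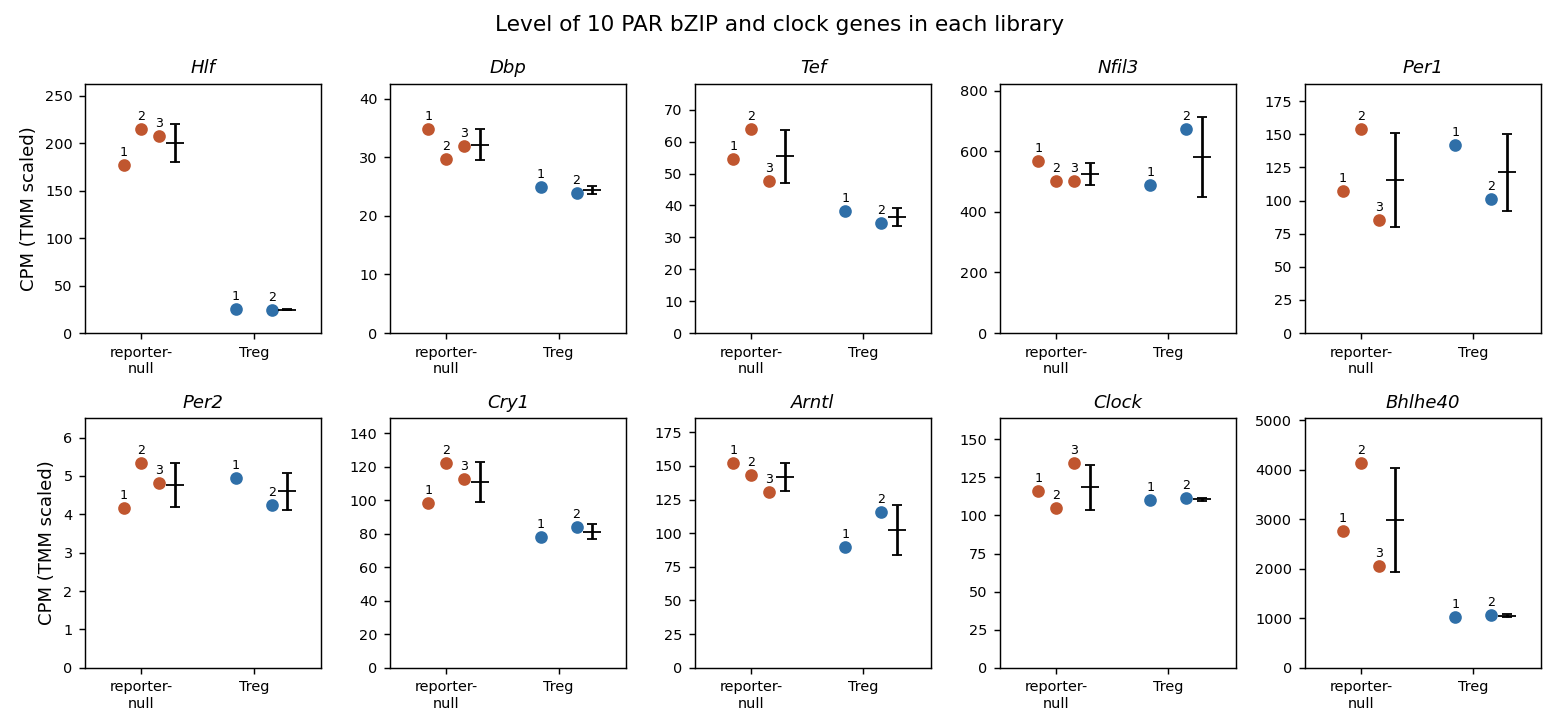
Level of each of the 10 genes in CPM (vertical axes, each from 0) in the 3 reporter-null libraries (orange) and the 2 Treg libraries (blue), with replicate numbers above the points and the mean ± SD in black. Hlf and Bhlhe40 show the widest gaps between the groups, and Nfil3, Per1, Per2 and Clock overlap.

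The other PAR bZIP activators differed far less. Tef had 54.5, 64.1 and 47.6 CPM in reporter-null replicates 1, 2 and 3, and 38.4 and 34.4 CPM in Treg replicates 1 and 2, a log2 fold change of 0.61 (SE 0.16). Dbp had 34.9, 29.6 and 31.9 CPM in the reporter-null libraries and 24.9 and 24.0 CPM in the Treg libraries, a log2 fold change of 0.39 (SE 0.14). For both genes every reporter-null library was above every Treg library, by a narrow margin. Exons of Dbp share 539 bases with exons of Sphk2 on the opposite strand in the GENCODE M21 annotation, and exons of Tef share 193 bases with the antisense gene Gm17597, so reads from these stretches cannot be assigned if the counting ignored strand.

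Seen per length, the make-up of the PAR bZIP transcripts differed between the groups. Dividing CPM by the kilobases (kb) of exon in GENCODE M21, an annotation that may differ from the one the authors counted with, Hlf gave 50.7%, 56.2% and 57.3% of the summed level of Hlf, Dbp and Tef in reporter-null replicates 1, 2 and 3. In Treg replicates 1 and 2 it gave 16.9% and 17.5%. Hlf was thus the most abundant of the 3 in every reporter-null library and the least abundant in both Treg libraries. The summed level was 62.0, 67.9 and 64.3 CPM per kb in the reporter-null libraries and 26.1 and 24.7 CPM per kb in the Treg libraries. With the longest transcript of each gene as its length, the shares were 50.1% to 56.6% in reporter-null cells and 16.5% to 17.2% in Treg cells.

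Nfil3, which represses the D-box motif that these factors activate, had 567, 503 and 503 CPM in reporter-null replicates 1, 2 and 3 and 488 and 675 CPM in Treg replicates 1 and 2. The groups overlapped, with the lowest and the highest library both Treg. Its means were 524 ± 37.0 CPM in reporter-null cells (SD, n = 3) and 581 ± 132 CPM in Treg cells (SD, n = 2), and the log2 fold change was -0.15 (SE 0.16). It became 0.11 without Treg replicate 2 and -0.36 without Treg replicate 1. Per kb of exon, Nfil3 exceeded the sum of Hlf, Dbp and Tef 4.51, 3.65 and 3.86 times in the reporter-null libraries, and 9.22 and 13.5 times in the Treg libraries. Nfil3 stayed the most abundant D-box factor in all 5 libraries, and its excess was smaller in each reporter-null library than in either Treg library. The sum differed mostly through Hlf, at 31.4 to 38.2 CPM per kb in reporter-null and 4.33 to 4.42 CPM per kb in Treg libraries. Much of the difference in the ratio thus restates that of Hlf.

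**Figure D2:**
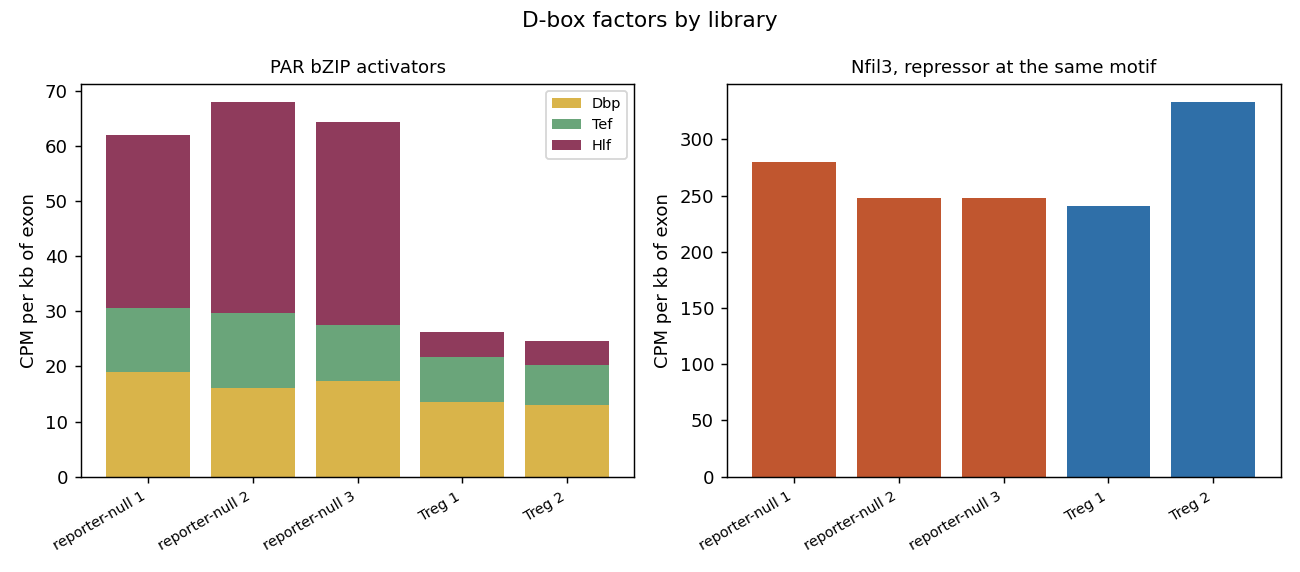
Level of the D-box factors in CPM per kb of exon in each library, with Hlf, Tef and Dbp stacked on the left and Nfil3 on the right, on axes of different range. The stack reaches 62.0 to 67.9 in the 3 reporter-null libraries and 24.7 to 26.1 in the 2 Treg libraries, with Hlf as the part that differs most, while Nfil3 overlaps between the groups.

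Bhlhe40, the E-box repressor, was the second gene with a wide gap. It had 2760.0, 4129 and 2059 CPM in reporter-null replicates 1, 2 and 3, and 1034 and 1073 CPM in Treg replicates 1 and 2. Every reporter-null library was above both Treg libraries, and the reporter-null libraries differed 2.01-fold among themselves, against 1.04-fold between the Treg libraries. The means were 2983 ± 1053 CPM in reporter-null cells (SD, n = 3) and 1053 ± 27.3 CPM in Treg cells (SD, n = 2), and the log2 fold change was 1.50 (SE 0.30). The highest library was reporter-null replicate 2, and without it the log2 fold change was 1.18. Exons of Bhlhe40 share 118 bases with the antisense gene 0610040F04Rik.

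Of the activating pair of the loop, Arntl did not overlap between the groups and Clock did. Arntl had 152, 143 and 131 CPM in reporter-null replicates 1, 2 and 3 and 89.4 and 115.5 CPM in Treg replicates 1 and 2, with a log2 fold change of 0.47 (SE 0.15). All reporter-null libraries were above both Treg libraries, but the value depended on the Treg library, with 0.30 without Treg replicate 1 and 0.67 without Treg replicate 2. Arntl shares 33 exon bases with the antisense gene Gm45355. Clock, the partner of Arntl, had 116, 105 and 134 CPM in the reporter-null libraries and 110.0 and 111 CPM in the Treg libraries. The Treg libraries lay inside the reporter-null range, and the log2 fold change was 0.10 (SE 0.13).

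Of the period and cryptochrome genes, Cry1 was the one whose groups did not overlap. It had 98.2, 122 and 113 CPM in reporter-null replicates 1, 2 and 3, and 78.1 and 84.3 CPM in Treg replicates 1 and 2, a log2 fold change of 0.45 (SE 0.13). Per1, which is also induced by glucocorticoids and by cyclic AMP signals, had 107, 154 and 85.5 CPM in the reporter-null libraries and 142 and 101 CPM in the Treg libraries. Its libraries were mixed, with a log2 fold change of -0.07 (SE 0.28) that ran from -0.35 to 0.20 as single libraries were left out. Per2 was scarce, with 77, 111 and 108 counts in reporter-null replicates 1, 2 and 3 and 91 and 92 counts in the Treg libraries. That corresponds to 4.17, 5.33 and 4.81 CPM in reporter-null cells and 4.94 and 4.25 CPM in Treg cells, with overlapping groups and a log2 fold change of 0.05 (SE 0.32). The SE of Per2 was wider than that of Tef (0.16) or Cry1 (0.13), so a difference of their size would be less certain in Per2. What size of difference could be detected for Per2 was not tested.

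Of the 10 genes 6 did not overlap between the groups, all of them higher in reporter-null cells, where 40.8% of the 14164 tested genes did not overlap, 20.3% with higher and 20.5% with lower values. In the edgeR quasi-likelihood fit over all genes 2 of the 10, Hlf and Bhlhe40, lay past an adjusted p of 0.05, where 8.79% of all genes did, 4.07% with higher and 4.72% with lower values. Their median log2 fold change was 0.42, beside 0.02 over all tested genes. The genes were picked with this comparison in view, so nothing is read from these counts. Over the 12 alternatives the log2 fold change ran from 2.95 to 3.10 for Hlf and from 1.18 to 1.71 for Bhlhe40. Bhlhe40 was not past the threshold when either Treg library or reporter-null replicate 1 was left out, or with a block on the title numbers.

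Set against each other per length, the 10 genes kept most of their order in both groups. Bhlhe40 came first, with a mean of 940.0 ± 331 CPM per kb in reporter-null cells and 332 ± 9.19 CPM per kb in Treg cells (SD, n = 3 and n = 2). Nfil3 came second, with 259 ± 18.5 CPM per kb in reporter-null cells and 287 ± 65.1 CPM per kb in Treg cells. Arntl and Cry1 followed in that order in both groups, and Per2 was last, at 0.817 ± 0.0992 CPM per kb in reporter-null cells and 0.788 ± 0.0834 CPM per kb in Treg cells. Hlf changed its place and was the fifth in reporter-null cells, at 35.5 ± 3.59 CPM per kb, and the ninth in Treg cells, at 4.38 ± 0.0636 CPM per kb. Neighbours closer than the sum of their SDs were not separated. In reporter-null cells these were Cry1 (36.7 ± 3.99) and Hlf, Per1 (20.5 ± 6.24) and Dbp (17.5 ± 1.45), and Clock (11.9 ± 1.46) and Tef (11.8 ± 1.76), whose order turned with the longest transcript as length. In Treg cells they were Bhlhe40 and Nfil3, Arntl (33.2 ± 6.01) and Cry1 (26.8 ± 1.48), and Cry1 and Per1 (21.5 ± 5.16). Of 13811 tested genes with an exon length, 83.5% had a lower level per kb than Hlf in reporter-null cells and 41.6% in Treg cells. For Bhlhe40 the shares were 99.8% in reporter-null and 99.0% in Treg cells, and for Nfil3 98.8% in both.

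How far the libraries of a group spread is given as a description too, since the genes were picked with values of both groups known. Among the 3 reporter-null libraries the highest level was 1.13 times the lowest for Nfil3, 1.16 for Arntl, 1.17 for Dbp and 1.21 for Hlf, where the median of all tested genes was 1.31 (with 0.5 CPM added to each level). Per1 and Bhlhe40 spread most, at 1.80 and 2.01 times, wider than 81.3% and 85.7% of tested genes. Between the 2 Treg libraries the ratio was 1.02 for Hlf and 1.01 for Clock, and 1.38 for Nfil3 and 1.40 for Per1, with a median of 1.17 over all tested genes. Nfil3 was thus among the more even genes in reporter-null cells and among the more uneven in Treg cells, where 75.1% of tested genes had a narrower range. Reporter-null replicate 2, the library with the most epithelial RNA, was the highest of its group for Hlf, Tef, Per1, Per2, Cry1 and Bhlhe40. Without that library the log2 fold changes were 2.95 for Hlf, 0.48 for Tef, 0.37 for Cry1, -0.35 for Per1 and -0.04 for Per2.

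The remaining core clock genes were taken from a list of 10, all of which had enough counts to be tested. In reporter-null cells 3 were higher, Npas2, Nr1d1 and Nr1d2, and 1 was lower, Bhlhe41, where 8.79% of all genes passed. Without Treg replicate 1, and likewise without Treg replicate 2, 1 was higher and 1 lower. The list's median log2 fold change was 0.40, beside 0.02 over all tested genes. Every adjusted p below is that of edgeR's quasi-likelihood fit, adjusted by Benjamini-Hochberg over all 14164 genes.

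Nr1d1, which encodes the RORE repressor REV-ERB alpha, had 138.5, 113 and 104 CPM in reporter-null replicates 1, 2 and 3 and 35.1 and 35.3 CPM in Treg replicates 1 and 2. It rose in reporter-null cells, with a difference of 1.75 on the log2 scale (SE 0.16, adjusted p = 0.0015). A block on the title numbers ended the call (0.063), while a block on the description numbers kept it (1.06e-05). The 12 alternatives gave 4.72e-22 to 0.063. Nr1d2, the gene of the related REV-ERB beta, had 91.0, 95.6 and 109 CPM in the reporter-null libraries and 58.2 and 58.3 CPM in the Treg libraries. It rose too, by 0.76 (SE 0.13, adjusted p = 0.0138), and stayed called with a block on the description numbers (0.00773). It did not pass without Treg replicate 1 (0.126) or Treg replicate 2 (0.105), or with a block on the title numbers (0.119), and the 12 alternatives gave 3.42e-07 to 0.126.

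Rora and Rorb encode receptors that activate the RORE. Rora had 512, 679 and 471 CPM in the reporter-null libraries and 542 and 536 CPM in the Treg libraries, overlapping groups that differed by 0.04 (SE 0.17, adjusted p = 0.93). Rorb was near the limit of detection, at 0.325 to 0.445 CPM in reporter-null and 0.706 to 1.20 CPM in Treg libraries, and was not called (-1.24, SE 0.70, adjusted p = 0.369).

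Npas2, which can take the place of CLOCK as the partner of ARNTL, had 13.6, 18.5 and 14.5 CPM in reporter-null replicates 1, 2 and 3 and 3.96 and 5.50 CPM in Treg replicates 1 and 2. It rose by 1.71 (SE 0.27, adjusted p = 0.0111, and 0.00202 with a block on the description numbers), while Clock itself had overlapping groups. Npas2 was no longer called when Treg replicate 1 (0.0954), Treg replicate 2 (0.0508) or reporter-null replicate 1 (0.0502) was left out, or with the block on the title numbers (0.0966), and the 12 alternatives gave 6.47e-07 to 0.0966. Arntl2, the paralogue of Arntl, had 24, 19 and 32 counts in reporter-null replicates 1, 2 and 3 and 0 and 5 counts in the Treg libraries, and was not called (adjusted p = 0.158). It was called without reporter-null replicate 2 (0.0469) and with DESeq2 (0.0375), over a range of 0.0375 to 0.403 for the 12 alternatives, and its log2 fold change ran from 2.36 to 7.61 as single libraries were left out.

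Bhlhe41, the closest relative of Bhlhe40 and an E-box repressor too, went the other way from it. It had 1.35, 2.54 and 2.80 CPM in reporter-null replicates 1, 2 and 3 and 20.3 and 19.9 CPM in Treg replicates 1 and 2, a log2 difference of -3.16 (SE 0.34, adjusted p = 0.00276). A block on the title numbers ended that call (0.0825), while a block on the description numbers kept it (3.17e-05). The 12 alternatives gave 3.7e-15 to 0.0825. Of the other repressors Per3 had 11.8, 12.9 and 11.4 CPM in the reporter-null libraries and 6.35 and 6.80 CPM in the Treg libraries, a log2 fold change of 0.87 (SE 0.21) that just missed the threshold (adjusted p = 0.0536). DESeq2 called it (0.00272), and the 12 alternatives gave 0.00272 to 0.257. Cry2 had 17.4, 23.7 and 13.1 CPM in the reporter-null libraries and 28.1 and 33.0 CPM in the Treg libraries (-0.76, SE 0.25, adjusted p = 0.131). It was thus lower in each reporter-null library, where Cry1 was higher, and it was called once reporter-null replicate 2 was left out (0.00754, with 0.00754 to 0.426 over the 12 alternatives). Ciart, which encodes the repressor CHRONO, had 2.78 to 3.41 CPM in reporter-null and 3.65 to 7.33 CPM in Treg libraries (-0.87, SE 0.41, adjusted p = 0.278). The difference was -0.28 without Treg replicate 1 and -1.28 without Treg replicate 2.

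**Figure D3:**
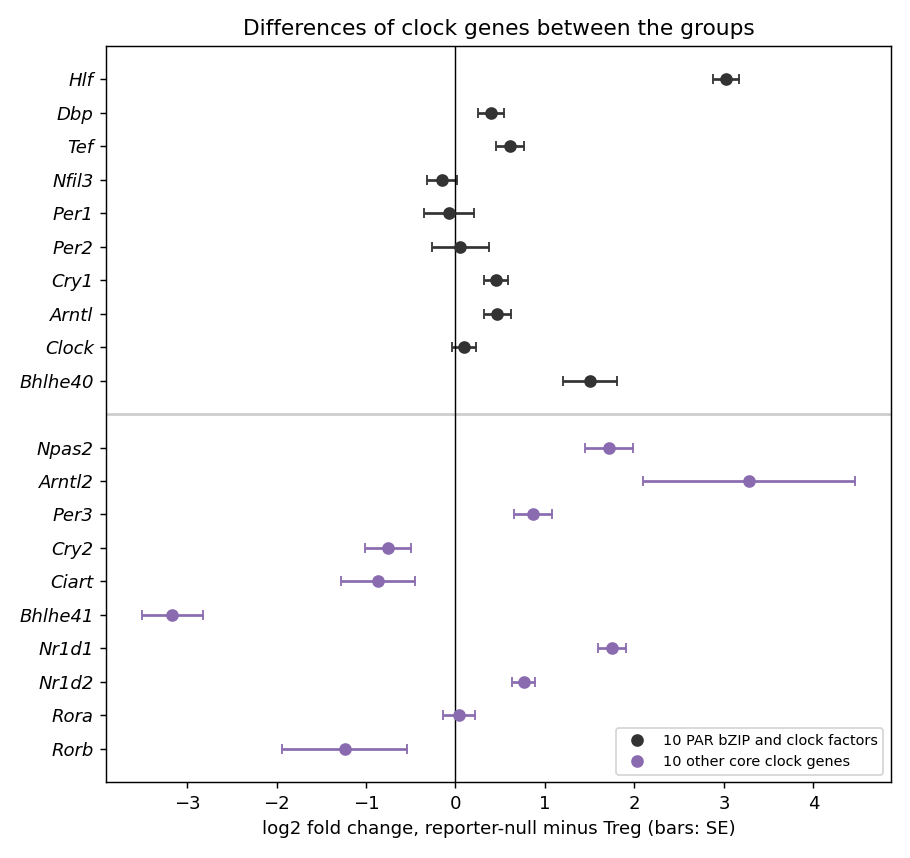
Log2 fold change, reporter-null minus Treg, with its SE (horizontal axis) for the 10 PAR bZIP and clock factors (dark) and the 10 other core clock genes (violet). Apart from Arntl2, Hlf at 3.02 and Bhlhe41 at -3.16 lie at the 2 ends. The wide bars of Arntl2 and Rorb come with few counts, and Bhlhe41 had few counts in reporter-null cells.

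Of 15 tested enzymes and cofactors that act on the clock proteins, 1 was higher and none lower, with a median log2 fold change of 0.05, where 8.79% of all genes passed, so the count is near that of genes in general. The called gene was Ncor1, a corepressor that REV-ERB recruits, with 530 ± 31.3 CPM in reporter-null and 356 ± 8.52 CPM in Treg cells (0.57, SE 0.11, adjusted p = 0.0271). Leaving out Treg replicate 1 (0.214), Treg replicate 2 (0.155) or reporter-null replicate 1 (0.103) ended that call, and the 12 alternatives gave 2.19e-08 to 0.214. The casein kinase genes Csnk1d and Csnk1e, which mark PER proteins for breakdown, had log2 fold changes of -0.08 (SE 0.14) and 0.05 (SE 0.20).

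Of 9 tested C/EBP and CREB factors, which are bZIP proteins too, 1 was higher and 2 were lower, where 4.07% of all genes were higher and 4.72% lower, and their median log2 fold change was 0.14, beside 0.02 over all genes. Cebpb fell to 196 ± 47.2 CPM in reporter-null cells, against 453 ± 30.6 CPM in Treg cells (-1.21, SE 0.20, adjusted p = 0.0141). Crem, which encodes a cyclic AMP-responsive modulator and its repressor form ICER, fell to 283 ± 24.1 CPM in reporter-null cells, against 496 ± 25.4 CPM in Treg cells (-0.81, SE 0.12, adjusted p = 0.00898). Cebpd rose to 19.6 ± 5.73 CPM in reporter-null cells, against 7.78 ± 0.67 CPM in Treg cells (1.33, SE 0.27, adjusted p = 0.031). Each of these calls ended when Treg replicate 1, Treg replicate 2 or reporter-null replicate 1 was left out, with adjusted p up to 0.134 for Cebpb, 0.129 for Crem and 0.184 for Cebpd and down to 1.15e-06, 1.12e-09 and 0.000606 over the 12 alternatives.

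Of 10 tested genes known as outputs of the clock in other tissues, none was higher and 1 was lower, near the 8.79% of all genes that passed, and their median was 0.01. Nampt, the enzyme that sets the rate of NAD salvage, fell to 42.8 ± 5.83 CPM in reporter-null cells, against 77.0 ± 5.12 CPM in Treg cells (-0.85, SE 0.14, adjusted p = 0.0154). Leaving out Treg replicate 1 (0.0884), Treg replicate 2 (0.116) or reporter-null replicate 1 (0.0761) ended the call, and the 12 alternatives gave 1.45e-05 to 0.116.

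Per1, Nfil3 and Bhlhe40 respond quickly to stimuli in many cells, so genes of 2 such responses were set beside them. Of 11 glucocorticoid-induced genes tested, 2 were higher and none lower, where 4.07% of all genes were higher and 4.72% lower, with a median of 0.17, beside 0.02 over all genes. They were Fkbp5, a chaperone of the glucocorticoid receptor (179 ± 23.7 CPM in reporter-null and 97.0 ± 2.37 CPM in Treg cells, 0.89, SE 0.14, adjusted p = 0.013), and the zinc finger factor Klf9 (41.7 ± 4.86 CPM in reporter-null and 25.3 ± 1.10 CPM in Treg cells, 0.72, SE 0.15, adjusted p = 0.0316). Tsc22d3, a classical target of that receptor, had 943 ± 35.5 CPM in reporter-null and 928 ± 30.3 CPM in Treg cells (0.02, SE 0.12, adjusted p = 0.937). Fkbp5 and Klf9 were no longer called without Treg replicate 1 (0.124 and 0.159), Treg replicate 2 (0.118 and 0.179) or reporter-null replicate 1 (0.0716 and 0.0985), and Klf9 without reporter-null replicate 3 (0.0588). Over 12 alternatives their adjusted p ran from 6.24e-07 to 0.124 for Fkbp5 and from 0.000715 to 0.187 for Klf9.

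Of 17 immediate-early and dissociation genes tested, 3 were higher in reporter-null cells and none lower, where 4.07% of all genes were higher and 4.72% lower, with a median of 0.56, beside 0.02 over all genes. The 3 were Fosb (776 ± 141 CPM in reporter-null and 373 ± 50.7 CPM in Treg cells, 1.06, SE 0.19, adjusted p = 0.0184), Ier3 (1.91, SE 0.32, adjusted p = 0.0156) and Btg2 (0.78, SE 0.17, adjusted p = 0.0347). None of the 3 passed without reporter-null replicate 1 (0.0779, 0.0731 and 0.119), Treg replicate 1 (0.179, 0.14 and 0.239) or Treg replicate 2 (0.0933, 0.068 and 0.0673), nor did Btg2 without reporter-null replicate 3 (0.0628), and the ranges over 12 alternatives were 1.14e-06 to 0.179 for Fosb, 2.25e-06 to 0.198 for Ier3 and 2.39e-05 to 0.239 for Btg2. The list's summed level was 73800, 42700 and 63800 CPM in reporter-null replicates 1, 2 and 3 and 29000 and 64400 CPM in Treg replicates 1 and 2. In CPM, most of this split within the groups lay in the abundant heat shock genes Hspa1a and Hspa1b. Its direction was shared by much of the list. All listed genes but Jund were lower in Treg replicate 1 than in Treg replicate 2. In reporter-null replicate 2, Fosb, Junb, Jund and Ier2 were the highest of their group and Nr4a1 lay between, while the others were the lowest. Hspa1a had 13659.7, 2047 and 11238 CPM in the reporter-null libraries and 1371 and 13095 CPM in the Treg libraries. Hspa1b had 19197, 3581 and 15418 CPM in the reporter-null libraries and 2423 and 18692 CPM in the Treg libraries. The libraries low in Hspa1a, reporter-null replicate 2 and Treg replicate 1, were the highest of their group for Per1, at 154 and 142 CPM. Treg replicate 1 was the lowest of the 5 for Nfil3, at 488 CPM. The libraries low in Hspa1a both carry the number 2 in their sample descriptions. They were also the highest of their group for the summed epithelial, myeloid, fibroblast, and B and plasma cell markers. What these libraries share, and its part in the levels of these genes, was not tested.

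By the smallest root mean square difference between log2 CPM profiles over the 5 libraries, each centred on its mean, the 3 genes nearest to Hlf among 8958 candidates were Apol7e, Apol7b and Ppp1r14c. Their differences from the Hlf profile were 0.11, 0.12 and 0.17 on the log2 scale. Apol7e, of the apolipoprotein L family, had 168, 192 and 158 CPM in reporter-null replicates 1, 2 and 3 and 20.7 and 19.5 CPM in Treg replicates 1 and 2. Apol7b had 125, 137 and 128 CPM in the reporter-null libraries and 15.9 and 18.8 CPM in the Treg libraries. Since the Apol7 genes are close copies, their reads may be split between them. Ppp1r14c, an inhibitor of protein phosphatase 1, had 129, 139 and 135 CPM in the reporter-null libraries and 13.8 and 19.2 CPM in the Treg libraries. The nearest genes to Dbp were Zap70, Mcfd2 and Srbd1, to Tef Coq2, Kctd2 and Samd11, and to Nfil3 Galnt11, Umps and Sesn2, with differences of 0.0219 to 0.0475 on the log2 scale. With 5 libraries and so many candidates near profiles are common, most of all for genes with small differences.

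**Figure D4:**
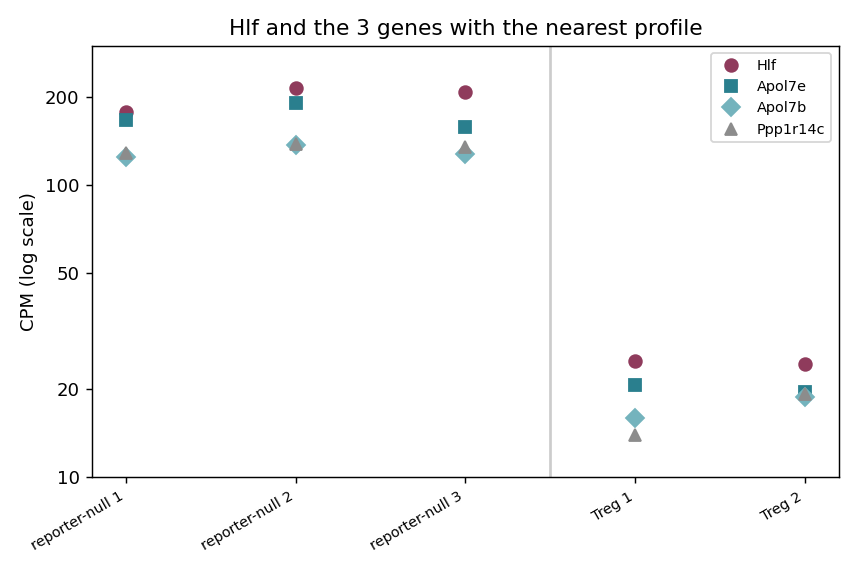
CPM on a log axis of Hlf and of Apol7e, Apol7b and Ppp1r14c, the 3 genes with the nearest profile, in the 3 reporter-null libraries (left of the line) and the 2 Treg libraries (right). The 4 genes lie at 125 to 215 CPM in the reporter-null libraries and at 13.8 to 24.9 CPM in the Treg libraries.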

How the data were processed

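The data were RNA-seq counts from 5 libraries, 3 reporter-null and 2 Treg, grouped and numbered by sample title. Per the labels' protocols, polyadenylated RNA was amplified with SMART-Seq v4 and sequenced in pairs on an Illumina HiSeq. The authors deposited raw whole-number counts per gene symbol (per the file headers, with values that match), and the submitters' processing notes name DESeq with no role. No aligner, build, annotation or strand setting is given in the sources used here, so only RefSeq promoter windows carry coordinates. Reads had no molecular identifiers.

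Of 24421 rows, 4 named NA were left out (0.0034% to 0.00492% of a library). Totals ran from 17670420 to 22395169. Replicates differed beyond sampling noise (chi-square per degree of freedom 21.3 to 91.2).

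The filter was filterByExpr (minimum count 10, minimum total 15), which left 14164 genes, and in R 4.3.3 the groups were compared with the robust quasi-likelihood F test of edgeR 4.0.16 with TMM factors, Benjamini-Hochberg adjustment and a threshold of 0.05. SE is the log2 fold change divided by the square root of F. An unadjusted p under 0.05 was found for 3199 genes. The steps were tested on simulated counts. Exon lengths came from GENCODE M21 by symbol. Genes with near profiles needed a mean log2 CPM of at least 3 (prior count 2). All 10 genes and all 10 other core clock genes were described, and in other lists called members were named, with a few more as examples of genes not called, picked after their values were seen. Some listed genes are not reported here and were left out of the lists' counts. The genes, lists and tests were chosen with earlier results of these data known. Alternatives were RLE factors, DESeq2 1.42.0, limma-voom (limma 3.58.1), 2 other filters, blocks on the replicate numbers and each library left out. Protein identity between the bZIP factors was not analysed here.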

Additional observations from a re-analysis of the deposited data

How the results depend on the processing

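The log2 fold change kept its sign under all 12 alternatives for Hlf (2.95 to 3.10), Bhlhe40 (1.18 to 1.71), Tef, Dbp, Cry1 and Arntl, and changed sign under at least 1 for Nfil3, Per1, Per2 and Clock, which were not past the threshold. Calls over all genes (577 higher, 668 lower) ran from 146 to 926 higher and from 192 to 1109 lower as single libraries were left out, and DESeq2 gave 1200 and 1123. Among the 10 genes the count of 2 higher was 1 to 3 as libraries were left out, 5 with DESeq2 (Hlf, Tef, Cry1, Arntl and Bhlhe40) and 3 with no filter. The 10 genes were picked with this comparison in view, so nothing is read from their counts. DESeq2 called 5 other core clock genes higher and 6 immediate-early genes higher.

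Leaving out single libraries gave 1 to 4 higher and 1 to 2 lower for the other core clock genes, and 0 to 2 higher and 0 to 1 lower for the enzymes and cofactors. It gave 0 to 1 higher and 0 to 3 lower for the C/EBP and CREB factors, and 0 to 2 lower for the clock outputs. It gave 0 to 3 higher and 0 to 3 lower for the glucocorticoid-induced genes and 0 to 6 higher for the immediate-early genes. DESeq2 called 3 glucocorticoid-induced genes higher and 3 C/EBP and CREB factors lower, and limma-voom called 0 of the latter higher and 3 lower. The cause of these differences was not tested.

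Deviations from the group means correlated across genes at -0.511 and -0.602 for libraries with the same title number, and at 0.602 and 0.481 for libraries with the same number in the descriptions. With only 2 Treg libraries, their deviations from the group mean are exact opposites. The values -0.602 and 0.602 are therefore the same correlation with its sign turned. The deviations of the 3 reporter-null libraries also add up to 0. The values are thus not independent, and they cannot decide between the numberings. In the descriptions the number 2 is that of Treg replicate 1 and reporter-null replicate 2. The number 3 is that of Treg replicate 2 and reporter-null replicate 3. The labels do not say what a number marks. A replicate block on the title numbers left 12 calls higher and 12 lower over all genes. Of the 10 genes it kept 1 (Hlf), and it left 0 calls in either direction in each of the 6 lists. A replicate block on the description numbers gave 719 higher and 680 lower over all genes. It left 0 enzymes and cofactors called and called 2 clock outputs lower and 5 immediate-early genes higher.

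Low counts limit Per2, Arntl2, Rorb, Ciart and Bhlhe41. Counting error is part of their SE.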
